A study of Mus musculus with 6 samples.

Results

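Immediate early genes are transcribed within minutes of a stimulus, without new protein synthesis, because the factors that bind their promoters are already present in the cell. Growth factors, calcium, stretch and the enzymes used to free cells from tissue all reach them through kinase cascades, and their RNA is short-lived. In single-cell work they are therefore read both as a record of signalling and as a record of handling. The 9 genes described here were Fos, Fosb, Fosl1, Jun, Junb, Egr1, Ier2, Ier3 and Atf3, taken by name as a fixed list from the 52636 genes of the deposited count table, and all 9 were found there. Fos, Fosb and Fosl1 (the Fos family) and Jun and Junb (the Jun family) encode the subunits of AP-1, a dimeric transcription factor. Egr1 is a zinc finger transcription factor, Ier2 and Ier3 are short response genes named for their early induction, and Atf3 is a stress-induced factor of the ATF/CREB family.

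The study asked what loss of Dram2, an autophagy-related membrane protein of the lysosome, does in these cells. RNA was counted in 25428 cells cultured from the retinal pigment epithelium (RPE) and choroid of male C57BL/6J mice aged 12 to 16 months, in 3 samples of each of the genotypes Dram2 wt/wt and Dram2 ko/ko, called wt/wt and ko/ko from here on. The ko/ko mice carried a constitutive deletion of Dram2 exon 4 made by CRISPR, and the wt/wt mice did not. The dissected layer was dissociated with papain, cultured and then profiled with the 10x Genomics 3′ chemistry, which counts molecules by unique molecular identifiers (UMIs). The deposited annotation named 8 cell types: Fibroblast, Fibroblast 2, Fibroblast proliferating, Fibroblast-like, RPE, Endothelial, Pericyte and Myeloid.

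The 9 genes lie apart from each other in GRCm38. Fos is at chr12:85473890-85477273 on the plus strand with up to 4 exons, Fosb at chr7:19302696-19310051 on the minus strand with up to 5, and Jun at chr4:95049034-95052222 on the minus strand with a single exon. Junb (chr8:84974484-84978718) and Ier2 (chr8:84661331-84662852) are both on the minus strand of chromosome 8. Fosl1 is at chr19:5447547-5455946, Ier3 at chr17:35821684-35822923 and Atf3 at chr1:191170296-191218039. Because the reads come from 3′ ends, a 3′ end shared with another gene can make a count uncertain. For genes on opposite strands this holds only where reads are not assigned by strand. Transcript ends were cut into overlapping words of 31 bases over 400 bases, of which 38.7% for Fosl1 were also found in Ccdc85b and 19.7% for Junb in Prdx2, each on the opposite strand, and none for the other 7.

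RefSeq windows from 250 bases before to 50 bases after the transcription start (GRCm38.p6) were matched for 6 of the 9 genes, not for Fosl1, Egr1 and Ier2. Those of Fos (chr12:85473640-85473939, plus strand), Fosb (chr7:19309996-19310295, minus strand) and Jun (chr4:95052173-95052472, minus strand) are shown because Fos and Fosb deviated together between samples while Jun deviated the other way. Capitals mark TGACG, the core of the cAMP response element, on either strand.
Fos: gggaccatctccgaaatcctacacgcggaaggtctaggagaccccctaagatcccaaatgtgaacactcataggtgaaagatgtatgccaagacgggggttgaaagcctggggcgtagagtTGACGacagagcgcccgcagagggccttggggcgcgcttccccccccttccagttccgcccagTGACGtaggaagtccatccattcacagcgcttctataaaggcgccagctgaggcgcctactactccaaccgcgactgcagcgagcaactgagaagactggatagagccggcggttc
Fosb: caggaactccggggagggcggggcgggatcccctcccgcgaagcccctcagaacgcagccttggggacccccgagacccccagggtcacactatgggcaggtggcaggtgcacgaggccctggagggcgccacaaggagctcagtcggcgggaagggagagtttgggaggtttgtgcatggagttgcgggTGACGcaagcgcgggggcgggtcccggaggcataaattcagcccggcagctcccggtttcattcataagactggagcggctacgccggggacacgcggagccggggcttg
Jun: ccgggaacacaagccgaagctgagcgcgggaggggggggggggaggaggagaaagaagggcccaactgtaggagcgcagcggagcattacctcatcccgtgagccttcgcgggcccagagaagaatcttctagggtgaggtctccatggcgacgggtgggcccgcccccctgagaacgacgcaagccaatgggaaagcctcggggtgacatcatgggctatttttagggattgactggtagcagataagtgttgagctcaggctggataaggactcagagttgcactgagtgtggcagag
TGACG began 129 and 66 bases before the start in Fos and 60 before it in Fosb. It was also present in the windows of Junb and Atf3, and not in those of Jun and Ier3. Centred within the fibroblast types (18 sums), Junb had a Pearson r of 0.57 with Jun and -0.19 with Fos, and Atf3 of -0.36 with Fos. A link between TGACG and the deviations of the samples was not tested. On either strand it occurred in 20.8% of 32851 windows, so its presence in 4 of 6 is a description and not a site. The full element TGACGTCA (1.79% of windows), the AP-1 motif TGANTCA (7.81%) and the CArG box bound by SRF (1.63%) were in none of the 6 windows. Bases outside the windows were not searched, so sites further upstream would be missed. Near forms of these motifs were not searched either, and the Jun window holds tgacatca, which is close to TGACGTCA. The letters TATAAA were in those of Fos, 33 bases before the start, and Junb, at the start (13.6% of windows), and GCGNGGGCG, the motif bound by Egr1, in that of Fosb (5.55%).

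The samples held 2140 to 6648 cells and 96808998 to 122746184 UMIs. Median depth per cell ran from 16453 UMIs (ko/ko replicate 2) to 47373 UMIs (ko/ko replicate 1), and the median share of mitochondrial counts from 2.43% to 3.26%. ko/ko replicate 3 was the only sample of batch 2. Levels are given in CPM, a gene's UMIs relative to all UMIs counted in the same cells, and are not compared between genes. Replicates are listed in the order 1 to 3. All 4 markers of Endothelial cells and all 4 of Myeloid cells were highest in the type of that name. Of the fibroblast markers, Mgp was highest in Fibroblast proliferating cells and Dcn and Lum in Fibroblast 2 cells. Col1a1 and Col1a2 were highest in Pericyte cells (1703 and 3544 CPM). Of the proliferation markers, Top2a and Cdk1 were highest in Fibroblast proliferating cells. Mki67 was highest in Pericyte cells (144 CPM, against 100.2 CPM in Fibroblast proliferating cells). RPE cells had Otx2 (74.1 CPM) and Krt18 (473 CPM), whereas Rpe65 was near 0 in them (0.429 CPM). Best1 was lower in RPE cells (0.252 CPM) than in Fibroblast 2 cells (0.956 CPM). In the Pericyte cells Kcnj8, Higd1b and Ndufa4l2 were listed at 0. Rgs5 (8.44 CPM) and Pdgfrb (27.7 CPM) were lower in them than in Fibroblast cells (67.0 and 86.1 CPM). Cspg4, also a pericyte marker, was highest in the Pericyte cells (207 CPM). The Schwann cell markers Sox10 (176 CPM) and Ngfr (389 CPM) were high in them too, so that name stands here only for the deposited label. Dram2 itself was at 33.4, 39.6 and 38.1 CPM among wt/wt and 30.7, 28.3 and 30.1 CPM among ko/ko, a log2 fold change of -0.30 with a voom-limma adjusted p of 0.301. Reads from the 3′ end lie outside the deleted exon, so this level does not check the genotype.

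Over all cells of a sample, none of the 9 genes differed between genotypes at an adjusted p under 0.05 (voom-limma). The background was 0% of 22580 genes tested, and 1583 genes had an unadjusted p under 0.05 (edgeR called 0 genes and DESeq2 381, none of the 9 among them). Ier2 and Ier3 had the lowest unadjusted p-values of the 9, with values leaning higher in ko/ko, Fosb had a difference of like size in the other direction with a wide error, and Fos, Fosl1, Egr1 and Atf3 were within 0.05 of 0 on the log2 scale. In sums over all cells, fewer expressing cells and less RNA per cell cannot be told apart.

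Within the Fos family, Fos was at 39.4, 66.9 and 48.2 CPM in the wt/wt samples and 47.0, 46.0 and 51.2 CPM in the ko/ko samples. The wt/wt samples held both the lowest and the highest value, and the log2 fold change was -0.05 (SE 0.17). Fosb was at 5.32, 16.8 and 11.8 CPM among wt/wt and 11.1, 5.68 and 9.56 CPM among ko/ko, with a log2 fold change of -0.26 (SE 0.40). Its values also overlapped, with replicate 2 of wt/wt high and replicate 1 of wt/wt and replicate 2 of ko/ko low. Fosl1 hardly varied, at 84.9, 83.0 and 83.7 CPM among wt/wt and 87.0, 80.7 and 87.7 CPM among ko/ko (log2 fold change 0.04, SE 0.07).

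Of the Jun family, Jun was at 269, 216 and 256 CPM among wt/wt and 280.0, 299 and 247 CPM among ko/ko (log2 fold change 0.18, SE 0.12). Junb was at 215, 203 and 203 CPM among wt/wt and 237, 252 and 214 CPM among ko/ko (log2 fold change 0.19, SE 0.09, adjusted p 0.811). For each gene the lowest ko/ko sample, replicate 3, lay below the highest wt/wt sample.

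Egr1 was at 66.8, 111 and 87.9 CPM among wt/wt and 79.3, 73.9 and 106 CPM among ko/ko, with a log2 fold change of -0.01 (SE 0.19). All ko/ko values fell within the range of the wt/wt values.

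Ier2 was at 123, 125 and 112 CPM among wt/wt and 133, 152 and 140.0 CPM among ko/ko. It was the only one of the 9 genes whose genotypes did not overlap, and 4.2% of the genes tested had all ko/ko values above all wt/wt values (7.33% had them below). Its log2 fold change of 0.25 (SE 0.09) had an unadjusted p of 0.0257 and an adjusted p of 0.540 (voom-limma). Ier3 was at 430.0, 345 and 384 CPM among wt/wt and 455, 516 and 428 CPM among ko/ko, where replicate 3 fell just under replicate 1 of wt/wt. Its log2 fold change was 0.29 (SE 0.12), with an unadjusted p of 0.0416 and an adjusted p of 0.663. An unadjusted p under 0.05 was reached by 2 of the 9 genes, beside 7.01% of all genes tested. Within batch 1 alone, leaving 3 samples against 2, the log2 fold changes of Ier2 and Ier3 were 0.27 and 0.36 (adjusted p 0.434 and 0.338). Atf3 was at 11.8, 7.35 and 8.60 CPM among wt/wt and 10.5, 9.78 and 7.42 CPM among ko/ko (log2 fold change 0.03, SE 0.20), and its genotypes overlapped.

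**Figure D1:**
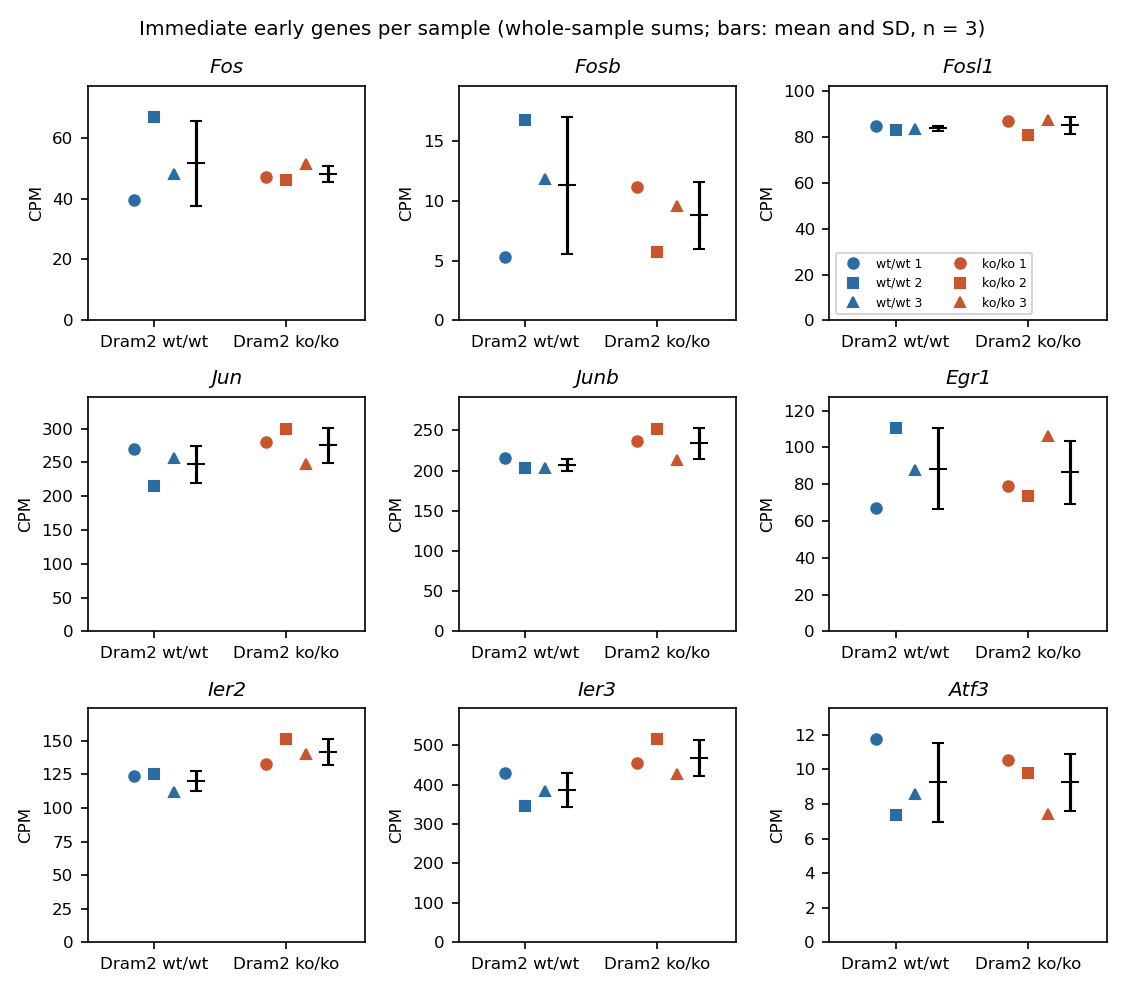
CPM of each of the 9 genes (vertical axes from 0) in each whole-sample sum, with wt/wt in blue, ko/ko in orange and the replicate number by symbol; the black bar is the mean with the SD of 3 samples. Only the Ier2 values do not overlap, at 112 to 125 CPM against 133 to 152 CPM, while Fos, Fosb and Egr1 spread widely within wt/wt.

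Within cell types, 65 tests of the 9 genes gave no adjusted p under 0.05, the smallest being 0.422. Of all genes tested, 0.624% passed in Fibroblast proliferating, 0.222% in Fibroblast 2, 0.0296% in Myeloid, 0.0118% in Pericyte and 0.00503% in Fibroblast cells, and 0% in Fibroblast-like, RPE and Endothelial cells. An unadjusted p under 0.05 was reached in 5 of these 65 tests, 1 in Fibroblast 2, 2 in Endothelial and 2 in Pericyte cells. Over all genes that share was 7.18% (Fibroblast), 6.79% (Fibroblast proliferating), 6.2% (Fibroblast 2), 5.94% (Myeloid), 5.9% (Pericyte), 5.24% (Endothelial), 5.08% (Fibroblast-like) and 4.65% (RPE). Fos, Fosb and Atf3 in Fibroblast-like cells, Fosb and Atf3 in Myeloid cells, and Fosb in Endothelial and Pericyte cells fell under the filter on low counts and were not tested. Of the Myeloid type, with 84 cells in all, only 2 samples against 2 held 10 cells or more.

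Junb, whose 3′ end overlaps Prdx2 on the other strand, had the smallest p of the 9 genes. In Pericyte cells it was at 203, 228 and 197 CPM among wt/wt and 320.1, 279 and 319.9 CPM among ko/ko, with every ko/ko sample above every wt/wt sample (log2 fold change 0.53, SE 0.14, unadjusted p 0.00343, adjusted p 0.422). In Endothelial cells it was at 424, 492 and 439 CPM among wt/wt and 619, 573 and 584 CPM among ko/ko, again without overlap (log2 fold change 0.42, SE 0.15, unadjusted p 0.0153, adjusted p 0.853). In Fibroblast cells Junb was at 202, 205 and 203 CPM among wt/wt and 219, 242 and 214 CPM among ko/ko, a log2 fold change of 0.14 (SE 0.08) that was 0.082 without ko/ko replicate 2. Its ko/ko values lay above all wt/wt values in Fibroblast proliferating cells too, which makes 4 of 8 types. Such a separation was found in 5.04% of genes in Pericyte cells, 3.94% in Endothelial cells, 4.57% in Fibroblast cells and 4.76% in Fibroblast proliferating cells (6.52% below there), and the types share their 6 libraries. In Myeloid cells Junb went the other way, with 242 and 219 CPM among wt/wt and 198 and 192 CPM among ko/ko, where 19% of genes had all ko/ko values below and 14.7% above. Fos and Fosb were also lower in both ko/ko Myeloid samples. In RPE cells none of the 9 genes separated the genotypes (2.48% of genes had all ko/ko values above and 5.09% below). In Fibroblast-like cells only the untested Atf3 did, with 0 to 1.90 CPM among ko/ko and 2.10 to 3.54 CPM among wt/wt (6.05% of genes below, 2.34% above).

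Jun had higher values in every ko/ko sample of Fibroblast 2 cells, at 463, 429 and 415 CPM against 381, 359 and 371 CPM among wt/wt (log2 fold change 0.25, SE 0.09, unadjusted p 0.0224, adjusted p 0.619). A separation in that direction was found in 4.81% of genes there. In Endothelial cells its order was the opposite, with 492, 504 and 388 CPM among ko/ko and 684, 518 and 544 CPM among wt/wt (log2 fold change -0.31, SE 0.17, adjusted p 0.962). Fosl1 was also below all wt/wt values in every ko/ko Endothelial sample, at 52.8, 42.9 and 65.4 CPM against 88.6, 92.6 and 82.0 CPM (log2 fold change -0.68, SE 0.23, unadjusted p 0.0101, adjusted p 0.751). In Endothelial cells 6.6% of genes had all ko/ko values below all wt/wt values, and these sums rest on 288 cells in which Fosl1 had 269 UMIs.

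Ier2 was at 97.5, 88.3 and 59.5 CPM in wt/wt Pericyte cells and 129, 130.4 and 94.9 CPM among ko/ko ones (log2 fold change 0.53, SE 0.21, unadjusted p 0.0280, adjusted p 0.775). Its log2 fold change was above 0 in 7 of 8 types, as was that of Ier3. In Fibroblast proliferating cells Ier2 and Ier3 were also without overlap, Ier3 at 415, 326 and 380 CPM among wt/wt and 414.9, 505 and 420 CPM among ko/ko, where the lowest ko/ko value and the highest wt/wt value, 414.9 and 414.7 CPM, were nearly equal. Fos was below 0 in 6 of the 7 types in which it was tested and Egr1 in 6 of 8, with log2 fold changes from -0.41 to 0.05 and from -0.84 to 0.19.

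**Figure D2:**
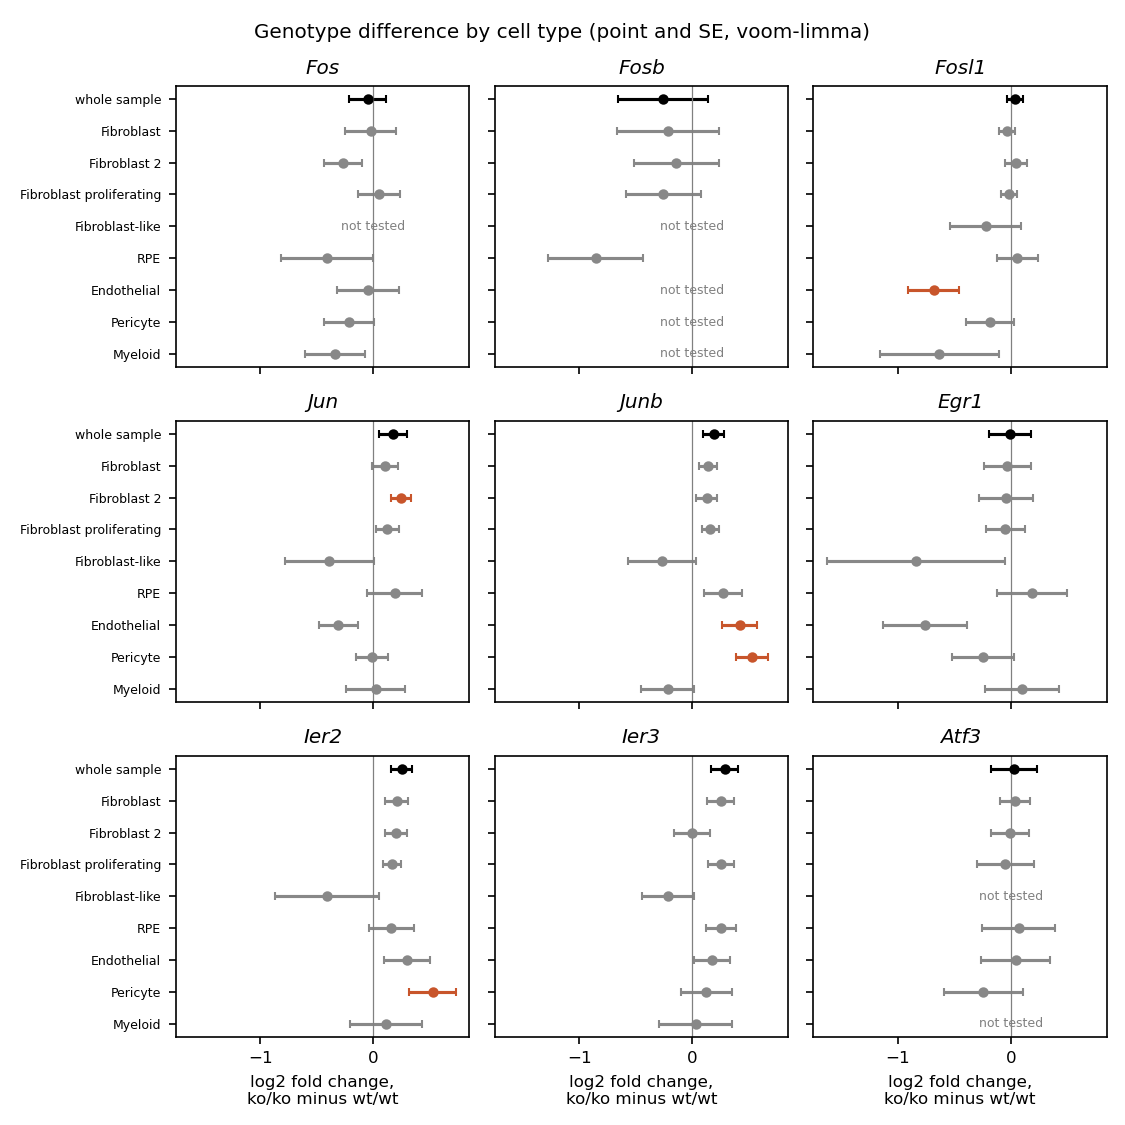
Log2 fold change (horizontal axis, ko/ko minus wt/wt) with its SE for each gene in the whole-sample sum (black) and in each cell type. Orange marks an unadjusted p under 0.05 within a type and grey any other. Junb, Ier2 and Ier3 lie to the right of 0 in most types, and no point passed an adjusted p of 0.05.

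Whether a genotype difference in another type differed from that in Fibroblast cells was tested for 5 types with an interaction term, and none of 45 tests of the 9 genes passed (smallest adjusted p 0.761). Of all genes, 0.0101% passed for Fibroblast proliferating cells and 0% for Fibroblast 2, Fibroblast-like, RPE and Endothelial cells. Unadjusted p under 0.05 was reached in 4 tests. For Jun the effect in Endothelial cells minus that in Fibroblast cells was -0.45 (SE 0.15, unadjusted p 0.0206, beside 6% of all genes under 0.05) and that for Fibroblast 2 cells was 0.17 (SE 0.075, unadjusted p 0.0384, beside 5.13%), the latter 0.27 without ko/ko replicate 2. For Fosl1 in Endothelial cells it was -0.65 (SE 0.27, unadjusted p 0.0442). For Atf3 in Fibroblast-like cells it was -1.38 (SE 0.51, unadjusted p 0.0262, beside 3.94% of all genes) and -0.81 without ko/ko replicate 2. That share was 3.72% for Fibroblast proliferating and 1.86% for RPE cells, where none of the 9 genes reached an unadjusted p under 0.05. Here the filter on low counts could be passed by counts in either type. Fos, Fosb and Atf3 in Fibroblast-like cells and Fosb in Endothelial cells, untested within those types, thus entered through Fibroblast cells. With 13 UMIs of Atf3 in Fibroblast-like cells, no difference is read from its value.

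For Fos, Fosb and Egr1 the means of the genotypes differed by less than the SD between wt/wt samples. In whole-sample sums the highest sample exceeded the lowest 3.15-fold for Fosb, 1.70-fold for Fos, 1.66-fold for Egr1, 1.39-fold for Jun, 1.36-fold for Ier2, 1.24-fold for Junb and 1.09-fold for Fosl1, with Atf3 and Ier3 between Egr1 and Jun. Over 10666 genes with a mean of 5 CPM or more the median of this ratio was 1.26, with 1.10 and 2.04 at its 5th and 95th percentiles. Fosb lay above that range and Fosl1 just below it.

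Egr1 ordered the 6 samples identically in the whole-sample sum and in Fibroblast, Fibroblast 2 and Fibroblast proliferating cells, from wt/wt replicate 2 through ko/ko replicate 3, wt/wt replicate 3, ko/ko replicate 1 and ko/ko replicate 2 to wt/wt replicate 1. In Fibroblast cells it was at 67.3, 118 and 90.2 CPM among wt/wt and 79.5, 76.5 and 111 CPM among ko/ko. In Fibroblast 2 cells it was at 75.6, 151 and 122 CPM among wt/wt and 106, 82.4 and 139 CPM among ko/ko. The genotypes were interleaved along this order. Among the 6 types other than Fibroblast-like and Myeloid, wt/wt replicate 2 was the highest sample in 5 for Egr1, in 4 for Fos and in 4 for Fosb, and the lowest in 4 for Jun.

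Fos in Fibroblast cells was at 41.7, 81.9 and 51.1 CPM among wt/wt and 51.3, 48.4 and 66.9 CPM among ko/ko, with the same 2 samples highest as for Egr1. Jun in Fibroblast cells was at 236, 191 and 238 CPM among wt/wt and 232, 266 and 217 CPM among ko/ko, where those 2 samples were lowest. Centred within Fibroblast, Fibroblast 2 and Fibroblast proliferating (18 sums from 6 libraries), log2(CPM + 1) gave Pearson r of 0.82 between Fosb and Egr1, 0.78 between Fos and Fosb and 0.69 between Fos and Egr1. Jun ran against these, with r of -0.68 with Fos, -0.62 with Fosb and -0.58 with Egr1. Junb went with Jun (0.57) and Ier2 (0.67), and Ier2 with Ier3 (0.64). The sums of 1 sample share a library, so these are descriptions over 6 libraries.

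The 2 samples highest for Egr1 also held the largest shares of RPE cells, 11.7% in wt/wt replicate 2 and 14.8% in ko/ko replicate 3, against 1.46% to 3.52% in the other 4, and the highest median mitochondrial shares, 3.26% and 3.12%. Their deviations from the group means over 22580 genes correlated with r of 0.56, and those of wt/wt replicate 1 and ko/ko replicate 2 with r of 0.65. The part of cell composition, RNA quality and library in the order of Egr1 was not tested.

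**Figure D3:**
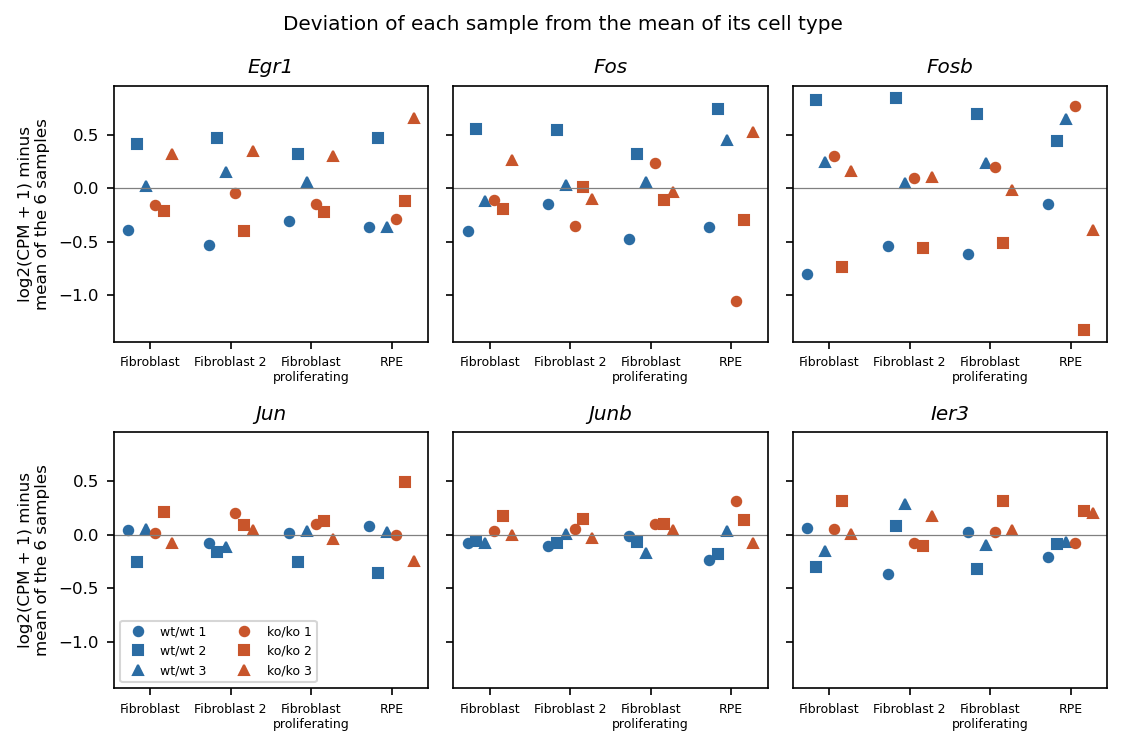
Deviation of log2(CPM + 1) from the mean of the 6 samples (vertical axis) in 4 cell types (horizontal axis) for 6 of the genes, with genotype by colour and replicate by symbol. For Egr1, wt/wt replicate 2 (blue square) and ko/ko replicate 3 (orange triangle) are at the top in each type, and for Jun in Fibroblast cells they are at the bottom.

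Across cell types, all 9 genes had their lowest mean level in Fibroblast-like cells and none of them was highest in Fibroblast or RPE cells. How many of all genes were lowest in Fibroblast-like cells was not counted. The types were drawn from the same expression values, so their levels are given without a test. Fibroblast-like cells held 1121 cells with a median of 4825 UMIs, against 26108 in Fibroblast cells, and a sub-cluster of 168 of them had a median mitochondrial share of 91.1%. The ratio of Fibroblast to Fibroblast-like means ran from 3.84 for Fosl1 to 8.10 for Fosb. For Jun, Junb, Ier2 and Ier3 the samples of Fibroblast-like cells did not overlap with those of the next type up.

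Atf3 varied most between types. It was at 179, 66.1 and 140.2 CPM in wt/wt Endothelial cells and 106, 167 and 113 CPM among ko/ko ones (128 ± 42.1 CPM, SD, n = 6), against 7.72 ± 0.845 CPM (n = 6) in Fibroblast cells. Within samples the ratio ran from 9.43 to 21.0. Pericyte cells followed with 43.9 ± 16.5 CPM, whose samples overlapped with Endothelial ones and not with those of Fibroblast 2 cells, at 19.3 ± 2.96 CPM. Atf3 was at 5.14 ± 1.28 CPM in Fibroblast proliferating cells, 25.0-fold below Endothelial cells.

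In the Jun family, Junb was highest in Endothelial cells, and Jun was highest in Endothelial and Pericyte cells, which overlapped. Junb was at 522 ± 81.8 CPM there (n = 6), 349.6 ± 23.0 CPM in Fibroblast 2 cells and 258 ± 56.1 CPM in Pericyte cells, and neither of these neighbouring pairs overlapped between samples. From Pericyte cells down to RPE cells (172 ± 25.5 CPM) each type overlapped with the next. Jun was at 522 ± 95.9 CPM in Endothelial and 520.1 ± 60.9 CPM in Pericyte cells, 403 ± 39.7 CPM in Fibroblast 2 and 230.0 ± 24.7 CPM in Fibroblast cells. Its Endothelial level lay above the Pericyte level in the 3 wt/wt samples and below it in the 3 ko/ko samples. These levels rest on 288 and 308 cells. How many of all genes had such an order was not counted, and the order was not tested. Jun exceeded the Fibroblast level in 6 of 6 samples in Endothelial, Pericyte, Fibroblast 2, Fibroblast proliferating and RPE cells.

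The Fos family did not share that order. Fos was highest in Pericyte cells at 141 ± 31.8 CPM (n = 6), followed by Myeloid cells at 110.5 ± 16.6 CPM (n = 4), and was lower than Fibroblast (56.9 ± 14.8 CPM) in 6 of 6 samples in RPE cells (17.2 ± 7.73 CPM) and Fibroblast proliferating cells (38.0 ± 7.19 CPM). Fosb was lower in Fibroblast 2 (5.35 ± 2.45 CPM) than in Fibroblast cells (11.0 ± 4.96 CPM) in 6 of 6 samples, with ratios of 0.429 to 0.584 within samples, and had only 12 UMIs in Endothelial cells. Each type overlapped with its neighbour in the order of Fos, and likewise for Fosb. Fosl1 stayed between 49.9 and 107 CPM in the 7 types other than Fibroblast-like.

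Fibroblast 2 cells exceeded Fibroblast cells in 6 of 6 samples for 7 of the 9 genes, the exceptions being Fos (4 of 6) and Fosb (0 of 6). The share of all genes that did so was not counted, so this describes the 9 genes only. The ratio of means was 2.51 for Atf3, 2.45 for Ier3, 1.75 for Jun, 1.66 for Ier2, 1.63 for Junb, 1.44 for Fosl1 and 1.25 for Egr1. Ier3 was at 694, 949.6 and 1090.3 CPM in wt/wt Fibroblast 2 cells and 847, 831 and 1009 CPM among ko/ko ones. With Endothelial cells, at 969 ± 115 CPM, they stood above all other types for Ier3, the next being Fibroblast proliferating cells at 410.2 ± 58.6 CPM without overlap. Egr1 (113 ± 30.4 CPM) and Ier2 (214 ± 21.6 CPM) were highest in Fibroblast 2 cells, in each case with overlap with the next type.

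**Figure D4:**
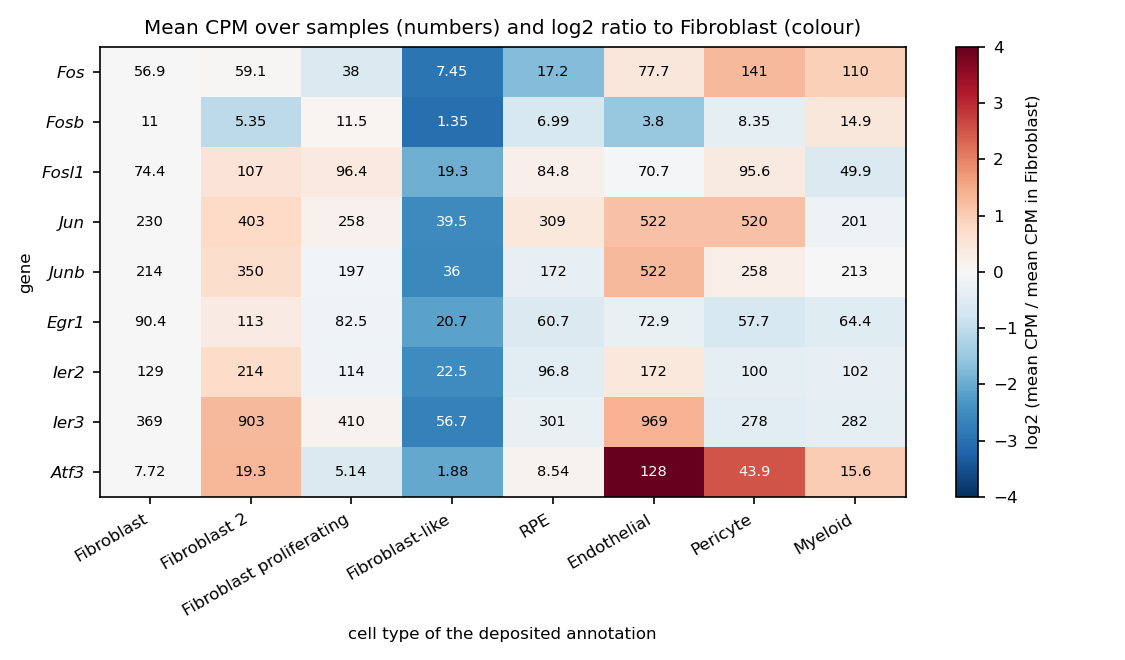
Mean CPM over samples (numbers) of each gene (rows) in each cell type (columns), coloured by its log2 ratio to the Fibroblast mean. The column of Fibroblast-like cells is low for every gene, and Atf3 in Endothelial cells (128 CPM against 7.72 CPM) is the strongest ratio.

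**Figure D5:**
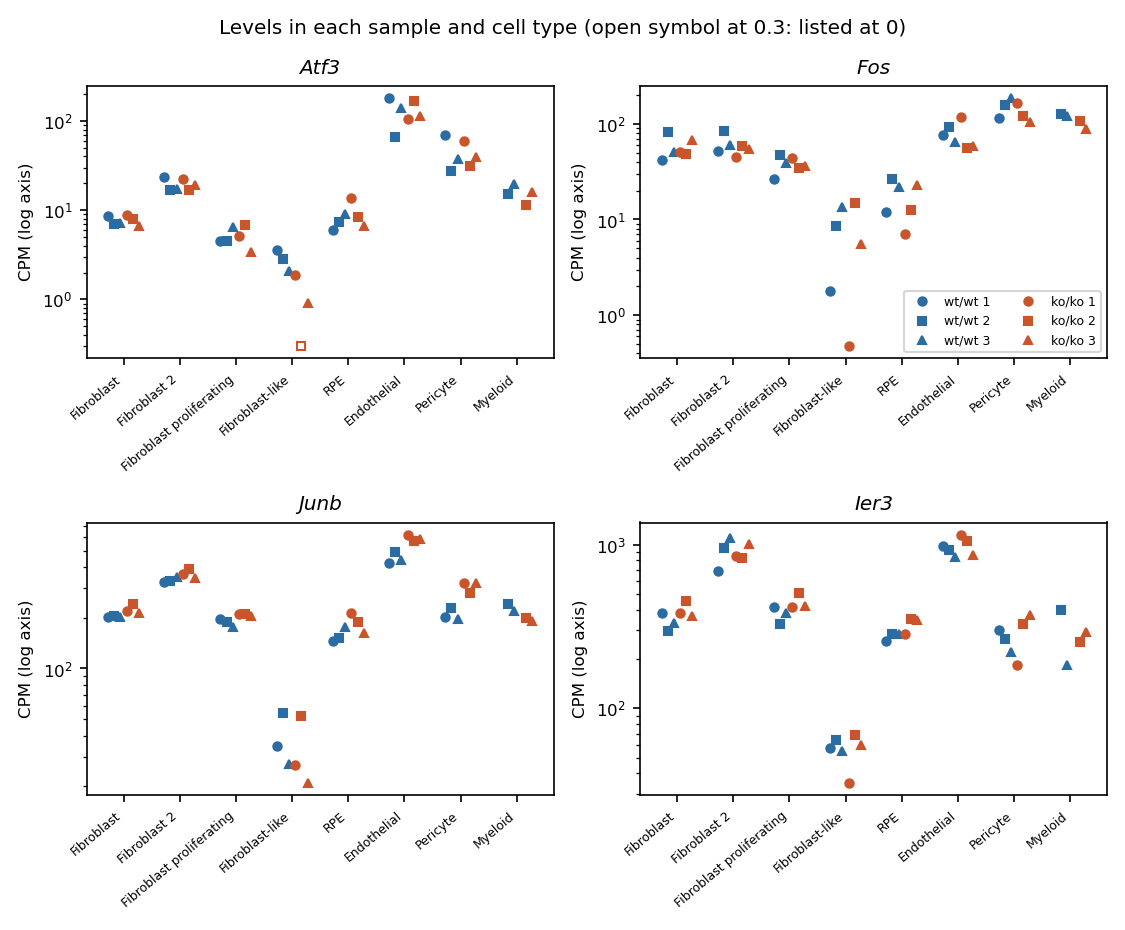
CPM (log axis) of Atf3, Fos, Junb and Ier3 in each sample and cell type, for sums of 10 or more cells, with wt/wt in blue and ko/ko in orange. Atf3 is highest in Endothelial and then Pericyte cells in every sample, Fos is low in RPE cells, and the genotypes overlap in all 4 panels in Fibroblast 2 and RPE cells, whereas Junb separates them in the other types apart from Fibroblast-like cells.

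Levels of Fos and Egr1 also varied between the deposited sub-clusters of the fibroblasts, which were likewise drawn from the same expression values. In sub-cluster 1, the largest with 9965 cells, Egr1 was at 78.2 ± 16.2 CPM and Fos at 50.7 ± 14.0 CPM (n = 6). In sub-cluster 4, with 1558 cells mostly annotated as Fibroblast, Egr1 was at 161 ± 37.5 CPM and Fos at 80.1 ± 24.5 CPM. The samples of sub-clusters 1 and 4 overlapped for Fos (37.3 to 75.9 and 45.0 to 113 CPM) and not for Egr1. Within each of the 6 samples, however, both genes were higher in sub-cluster 4 than in sub-cluster 1. The share of all genes that were so was not counted. In sub-cluster 7, with 214 cells, Egr1 was at 153 ± 37.7 CPM, Fos at 110.2 ± 27.9 CPM and Junb at 363 ± 72.7 CPM. Jun there (171 ± 27.9 CPM) lay below its level in sub-cluster 1 (233 ± 26.9 CPM). Median UMIs were 27032, 23388.5 and 18980.5 per cell in sub-clusters 1, 4 and 7.

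Single cells were compared after each was thinned to 4000 UMIs, which left out 219 wt/wt and 333 ko/ko cells. Atf3 had a UMI in 42.7% of 279 Endothelial cells and in 2.81% of 12578 Fibroblast cells (60.8% and 14.0% without thinning, at median depths of 9262.5 and 26108 UMIs). As a measure of free RNA, the myeloid gene Lyz2 had a UMI in 1.51% and the endothelial gene Pecam1 in 0.0795% of thinned Fibroblast cells (9.06% and 0.759% without thinning). The shares of Atf3 and of Fosb (4.09%) in Fibroblast cells were above both. Fos had a UMI in 17.6% of thinned Fibroblast and 7.82% of thinned RPE cells, Egr1 in 26.7% and 22.2%, Jun in 51.0% and 52.7% and Ier3 in 68.6% and 56.0% (53.3% and 27.9%, 64.3% and 55.0%, 88.9% and 81.0%, and 96.1% and 81.7% without thinning). These shares pool the samples, and wt/wt replicate 2 and ko/ko replicate 3 held 539 and 575 of the 1492 RPE cells. In thinned Fibroblast cells of those samples Egr1 had a UMI in 32.0% and 33.1%.

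The ratio of variance to mean over thinned Fibroblast cells, which is 1 for pure counting error, averaged 1.70 for Ier3, 1.69 for Junb, 1.58 for Atf3, 1.56 for Jun, 1.48 for Egr1, 1.37 for Fos and 1.23 for Ier2 over the 6 samples. It was 1.11 for Fosl1 and 1.04 for Fosb. Means per cell ran from 0.0323 UMIs (Atf3) and 0.0466 UMIs (Fosb) to 1.45 UMIs (Ier3). A low mean can hold this ratio near 1, so it does not rank the genes. For Egr1 it stayed between 1.42 and 1.55 in all 6 samples, for Junb it ran from 1.41 to 2.02, and for Atf3, the widest of the 9, from 1.12 to 2.31. Egr1 had a UMI in 21.1% to 33.1% of these cells across samples and Fos in 14.1% to 23.9%. The most loaded 10% of Fibroblast cells held 50.4% to 60.7% of all Egr1 UMIs in a sample. For Fosl1, with its ratio of 1.11, they held 49.1% to 54.6%.

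The share of thinned cells with 2 or more UMIs of the 9 genes together was 85.3%, 85.5% and 85.8% in wt/wt and 80.2%, 91.4% and 86.6% in ko/ko (95.1%, 96.2% and 96.0%, and 85.6%, 98.0% and 93.9%, without thinning). By this share the ko/ko samples lay on both sides of the wt/wt samples, which were within 1 point of each other. ko/ko replicate 1, the lowest, held 14.9% Fibroblast-like cells, against 1.82% to 5.13% in the other samples. Among Fibroblast cells alone the share was 87.2%, 86.6% and 86.5% in wt/wt and 88.2%, 91.6% and 89.6% in ko/ko. With 5 or more UMIs it was 46.5%, 43.9% and 44.5% in wt/wt and 47.1%, 57.9% and 50.3% in ko/ko. The summed level of the 9 genes was 1246.5, 1173 and 1196 CPM among wt/wt and 1339, 1435 and 1291 CPM among ko/ko. By each of the last 3 measures every ko/ko sample lay above every wt/wt sample. No test was made on these sums over the 9 genes. The 3 measures share cells and UMIs, so they are not separate results. Of single genes over whole samples, 4.2% had all ko/ko values above, and no such share was counted for sums of genes or shares of cells. The summed level rested mostly on Ier3, Jun and Junb (means of 426, 261 and 221 CPM). Fos, Fosb and Egr1 had log2 fold changes of -0.05, -0.26 and -0.01. For 33 other immediate early genes the sums overlapped, at 7260, 6697 and 6951 CPM among wt/wt and 8263, 7699 and 6670 CPM among ko/ko.

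Over 46 sums of a sample and cell type, log2(CPM + 1) of the 9 genes gave a median Pearson r of 0.68 over their 36 pairs, highest for Ier2 and Ier3 (0.94) and Junb and Ier3 (0.93). Without the Fibroblast-like sums (40 sums) the median was 0.23. Ier2 and Ier3 were then at 0.84, Junb and Atf3 at 0.80 and Jun and Atf3 at 0.78, while Fosb turned to -0.63 with Jun and -0.55 with Junb. The genes most like each member over the 46 sums, by Pearson r, were Sulf2 (0.91) and Zswim6 (0.89) for Fos, Naa40 (0.81) and Stt3a (0.81) for Fosb, Zfp62 (0.89) and Utp3 (0.89) for Fosl1, Nrip1 (0.95) and Tbcc (0.94) for Jun, and Rhob (0.96) and Cd47 (0.95) for Junb. For Egr1 Slc19a2 (0.85) is given, for Ier2 they were Ier3 (0.94) and Cdk13 (0.93), for Ier3 they were Luzp1 (0.95) and Nck1 (0.95), and for Atf3 they were Cdc42ep3 (0.91) and Dbp (0.91). Rhob, a small GTPase gene, is itself induced early by growth factors. All sums share 6 libraries, 8 cell types and their depths.

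The pathways around these genes were read from 4 further lists over whole-sample sums, and no gene of any of them was called. Of 33 other immediate early genes (Jund, the Nr4a, Klf, Egr and Dusp families and others), 24 had a log2 fold change above 0 and 9 below, with a median of 0.13 against 0.0046 over all genes tested, and 1 had an unadjusted p under 0.05, beside 7.01% of all genes tested (2 of 14 heat shock genes, 3 of 14 integrated stress response genes and 0 of 20 MAPK and SRF genes did). Jund, the remaining Jun gene, was at 314 ± 25.9 CPM among wt/wt and 366 ± 25.7 CPM among ko/ko (a change of 0.24 in log2, adjusted p 0.688), and Nr4a2, an orphan nuclear receptor, at 113 ± 4.72 and 132 ± 19.9 CPM (0.24, adjusted p 0.751). The corresponding median of the 9 genes was 0.04, with 6 above 0 and 3 below.

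Of 14 heat shock genes, 7 were above 0 and 7 below. Hspe1, a mitochondrial chaperonin gene, was lower in every ko/ko sample, at 74.0 ± 26.1 CPM against 131 ± 9.56 CPM, without passing the test (log2 fold change -0.88, SE 0.25, adjusted p 0.283). Of 14 integrated stress response genes, the list that Atf3 is downstream of, 9 were above 0 and 5 below (median 0.04). Phgdh, the entry enzyme of serine synthesis, was at 36.7 ± 7.55 CPM among wt/wt and 24.1 ± 2.92 CPM among ko/ko (a change of -0.58 in log2, adjusted p 0.244), and Sesn2 at 29.0 ± 1.73 and 24.3 ± 1.86 CPM (-0.24, adjusted p 0.546). Ddit4 (log2 fold change 0.19) and Cebpg (0.09) had all ko/ko values above, with adjusted p of 0.704 and 0.920. Genes of these lists are named because their genotypes did not overlap. Over all genes tested, 4.2% had all ko/ko values above all wt/wt values and 7.33% below. Of 20 genes of the MAPK and SRF pathways, which carry the signal to Fos and Egr1, 8 were above 0 and 12 below (median -0.03), and Spred1, an inhibitor of Ras signalling, was at 58.0 ± 1.48 and 61.3 ± 0.397 CPM (0.10, adjusted p 0.920).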

How the data were processed

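Single-cell RNA of cultured mouse RPE and choroid was measured in 6 samples, 3 per genotype. The authors deposited raw UMI counts per gene and cell, made with Cell Ranger 3.1.0 against GRCm38 per the submitters' processing notes, and a table with the sample, genotype, batch, cell type and sub-cluster of each cell. Depth and its precision are given per sample in the text, and errors between samples include counting error.

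UMI counts were added up per sample, and per sample and cell type where 10 or more cells were present. Genes were filtered with filterByExpr and scaled with TMM in edgeR 4.0.16. The genotypes were compared by voom-limma in limma 3.58.1 under R 4.3.3, with no covariate and with Benjamini-Hochberg adjustment over all genes tested in each comparison. All tests were two-sided. Sums over the 9 genes, the share of cells with their UMIs included, were not tested. The replicate numbers were checked for pairing, and samples of equal number were not the most alike. The interaction tests had the sample as a factor. The procedures were tested on simulated data. The annotation release the authors used is not given in the sources used here, and positions and 3′ ends come from GENCODE M21.

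Alternatives were edgeR's quasi-likelihood test, DESeq2 1.42.0, scaling by library size, keeping genes of low count, batch as a covariate, the replicate number as a block, cells of 500 or more genes and at most 20% mitochondrial counts (469 cells left out), cells without the 5% with most UMIs per sample, and leaving out each sample. No doublet caller was run. Cell names were running numbers, so barcodes shared between libraries could not be counted. No source used here says which animals a sample came from, so p-values measure the spread between these samples. The 9 genes and the lists were chosen with earlier results of these data known. Genes named were the 9 genes and Dram2, up to 3 higher and 3 lower genes per further list whose genotypes did not overlap, the 2 genes most like each of the 9, and markers. Some genes that this rule names are not reported here.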

Additional observations from a re-analysis of the deposited data

Results flagged for a closer look

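Jun was singled out because its genotypes separated in opposite directions in 2 cell types. The ratio of the ko/ko mean to the wt/wt mean was 1.18 in Fibroblast 2 cells, where all ko/ko samples lay above all wt/wt samples, and 0.792 in Endothelial cells, where all lay below. The difference between these 2 types was not tested directly, and neither separation passed an adjusted p of 0.05 (voom-limma). The Endothelial sums rest on 288 cells.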

How the results depend on the processing

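Of the 9 genes, 0 were called at an adjusted p under 0.05 in any of the 14 comparisons under any alternative run (188 fits in all). Of 200 log2 fold changes under alternatives that keep all samples, 2 changed sign, both without the 5% of cells with most UMIs: Egr1 (0.0091) and Atf3 (-0.0022) over whole samples. Without 1 sample, 21 of 162 changed sign. The ranges over whole samples were -0.22 to 0.14 for Fos, -0.71 to 0.077 for Fosb, -0.19 to 0.15 for Egr1 and -0.14 to 0.22 for Atf3, and in Fibroblast cells -0.22 to 0.25, -0.68 to 0.16, -0.23 to 0.17 and -0.020 to 0.16. wt/wt replicates 1 and 2 gave the extremes over whole samples. Ier2 (0.18 to 0.29), Ier3 (0.19 to 0.38), Junb (0.11 to 0.26) and Jun (0.06 to 0.26) stayed above 0 over whole samples, as they did in Fibroblast cells (0.15 to 0.32, 0.16 to 0.36, 0.082 to 0.19 and 0.0024 to 0.19).

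The ko/ko minus wt/wt difference in cells holding at least 2 UMIs of the 9 genes, 0.547 points, was 6.80 points with 5 or more UMIs, 3.05 among Fibroblast cells alone and 0.932 with cells filtered on genes and mitochondrial counts. It changed sign when cells were thinned to 8000 UMIs (-1.02) or not thinned (-3.24), and ran from -2.11 (without ko/ko replicate 2) to 3.48 (without ko/ko replicate 1) when 1 sample was left out. The median r between the 9 genes fell from 0.68 to 0.23 without the Fibroblast-like sums and to -0.040 when centred in 3 fibroblast types, 2 alternatives chosen after seeing the data. Of 144 levels, 4 moved by over 1 SD.

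Deviations of samples with equal replicate numbers correlated with r of 0.02, -0.59 and 0.03, so samples of equal number were not the most alike. Deviations from a group mean depend on each other, so a pairing masked by other differences between libraries would not be seen. With the replicate block, 0 of the 9 genes were called, and 0 genes in all over whole samples, 2 in Fibroblast 2, 32 in Myeloid and 0 in Fibroblast, Fibroblast proliferating and Pericyte cells.

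Counts of all genes called moved more. In whole samples, Fibroblast, Fibroblast 2 and Fibroblast proliferating they were 0, 1, 33 and 113 as reported, 0, 1, 11 and 62 with edgeR, 381, 321, 168 and 320 with DESeq2, 118, 87, 49 and 184 with batch as a covariate, and 0, 151, 71 and 202 with no filter. Scaling by library size gave 8 in Fibroblast 2. Leaving out 1 sample gave 0 to 242, 0 to 234, 0 to 121 and 0 to 290 in the same order, the highest each without ko/ko replicate 1. Without ko/ko replicate 3 they were 117, 150, 52 and 226, and without each wt/wt sample or ko/ko replicate 2 they were at most 1, apart from 80 in Fibroblast proliferating cells without wt/wt replicate 1. The ranges were 0 to 85 in Fibroblast-like, 0 to 3 in Endothelial, 0 to 21 in Pericyte (the highest each without ko/ko replicate 1) and 6 to 83 in Myeloid cells (the highest without wt/wt replicate 3; each such Myeloid fit leaves 1 genotype with 1 sample, assumed to vary like the others, and says nothing of stability), and 0 in RPE cells. DESeq2 gave 25 in Fibroblast-like, 25 in RPE, 13 in Endothelial and 22 in Pericyte cells, against 0, 0, 0 and 1, and edgeR 0 in Pericyte cells. Myeloid cells gave 2 as reported, 10 with edgeR, 11 with DESeq2, 59 with no filter and 6 without the cells of most UMIs, and Fibroblast-like cells 20 with no filter. The interactions gave 37 (Endothelial) and 6 (Fibroblast-like) with edgeR against 0, and for Fibroblast proliferating 1 with edgeR or no filter against 2. Without 1 sample they ran from 0 to 47 for Fibroblast 2 (the highest without wt/wt replicate 1), against 0, from 0 to 6 for Fibroblast proliferating (the highest without ko/ko replicate 2), and were 0 for Fibroblast-like, RPE and Endothelial cells. The cause was not tested. Depth limits Fosb and Atf3 most, at 8 and 13 UMIs in Fibroblast-like cells.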
